A study of Homo sapiens with 20 samples.

Results

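Uridine-rich clusters are the crosslinked RNA stretches in the anti-IGF2BP3 cluster lists whose sequence, written as DNA, has T at 40% or more of its letters. Without the mitochondrial chromosome, 72860 of 410579 clusters in 15 lists met this rule, with 707 as the fewest (PBS replicate 2) and 10578 as the most (TM 4 h replicate 3), and 337719 remaining clusters did not. The rule used only the cluster sequence, so the T content is a description. Counts, lengths, reads and conversions were not used by it, but the conversion share has a denominator that rises with T content. A share of letters also varies more in short stretches, so the rule bears on length too.

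IGF2BP3 is an RNA-binding protein with RRM and KH domains that is made in the fetus and again in many tumours, where it is known to bind messenger RNAs, mostly towards their 3′ ends. PAR-CLIP feeds cells 4-thiouridine, which is built into RNA in place of uridine and crosslinks to a bound protein under long-wave ultraviolet light. A crosslinked thiouridine is often read as C where the genome has T, so T-to-C conversions mark the site, and only positions with a T can carry one. A cluster is a stretch of overlapping reads that hold such conversions.

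HCT116, the cell line used throughout, was derived from a human colorectal carcinoma, and the cells had the genotype Tet-OsTIR1-PURO. Every culture, controls included, received 100 µM 4-thiouridine for 15 h and was irradiated at 365 nm with 0.150 J/cm2. There were 3 anti-IGF2BP3 libraries in each of 5 groups, which were PBS for 2 h, arsenite at 250 µM for 2 h (an oxidative stressor, called arsenate in the treatment protocol), DMSO for 4 h, and tunicamycin (TM, a blocker of protein N-glycosylation that causes endoplasmic reticulum stress) at 5 µg/mL for 1 h or for 4 h. One control IgG library was made in each condition. More than 1 concentration of RNase I and of RNase T1, which cuts after G, is stated without saying which library received which, so digestion and treatment cannot be told apart from the labels. Nothing says that the 3 libraries of a group came from separate cultures, so p-values measure the spread between these libraries only.

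Depth differed widely. The fewest reads in clusters were in PBS replicate 2 (40353) and the most in TM 4 h replicate 3 (1353261), with counts over genes from 130478 to 1568406, against 5981 to 17503 in the IgG libraries. All 7 epithelial markers listed had clusters in some library (2 of them uridine-rich ones), and 4 markers of other lineages, PTPRC, VIM, COL1A1 and PECAM1, had none. The library names place PBS and arsenite in one set, replicates 1 and 2 of DMSO and TM in another, and their replicate 3 apart from both, so arsenite and TM were compared each with its own control.

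The stretches below show what the clusters look like. Overlapping clusters of the 15 lists were merged into regions, and a region was counted as uridine-rich when at least 50% of its clusters were. Such a region can also hold clusters below the threshold, so its letters as a whole can be under 40% T. These are single uridine-rich clusters of up to 30 letters, 1 each from the regions with the most reads in all 15 libraries and from regions that rose or fell, in the strand of the RNA, 5′ to 3′. Capitals mark runs of 3 or more T, and coordinates are hg38.
KITLG, chr12:88493322-88493351, minus strand: aaatggataTTTgtgatcctgaaatgTTTa
CD164, chr6:109367396-109367415, minus strand: TTTagTTTcTTTagccaata
AREG, chr4:74454972-74454997, plus strand: ttaTTTTacagctcattaaacTTTTT
TMED7, chr5:115614222-115614249, minus strand: TTTTTgaaatcactactgttacctgtta
STC2, chr5:173317118-173317139, minus strand: atctcgaTTTcacTTTTTTTat
HSBP1, chr16:83811700-83811726, plus strand: aagtcaTTTTTTTTcttgtcattcctt
ACSL3, chr2:222908818-222908846, plus strand: cataccatcaaccctattcTTTTataTTT
In KITLG the T letters were spread through the stretch at 40%, the lowest share the rule admits, whereas in HSBP1 they made up 59.3% and stood in a run of 8. The KITLG stretch had 17 reads with 8 conversion events at 4 positions in TM 1 h replicate 1. The HSBP1 stretch had 11 reads with 4 events at 2 positions in TM 4 h replicate 1.

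Most uridine-rich clusters lay close to the threshold. The median T share was 43.5% and the highest 77.8%. Of the 72860, 86.3% had a T share from 40% to under 50%, 12.9% from 50% to under 60%, and 0.878% (640 clusters) 60% or more. Just inside the threshold, the 23729 clusters from 40% to under 42% had a median of 47 letters and a mean of 15.0 reads, and just outside it, the 24451 clusters from 38% to under 40% had 52 letters and 19.3 reads. The T were mostly not in one long tract, since the longest run had a median of 4 letters (3 in the remaining clusters). A run of 5 or more was present in 35.8% of uridine-rich clusters and 10.6% of the remaining ones, and a run of 8 or more in 3.16% and 0.470%.

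Most regions with a uridine-rich cluster also held clusters below the threshold. Of 75158 regions, 23369 held at least 1 uridine-rich cluster, and 18031 of these had clusters in 2 or more libraries. All clusters were uridine-rich in 2646 of those 18031 regions (14.7%). The others held both kinds of cluster, from different libraries or from different parts of the region. By the majority rule 13178 regions were uridine-rich, of which 507 had clusters in at least 12 libraries and 115 in all 15.

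Uridine-rich clusters made up a smaller share of the list after arsenite and after 4 h of tunicamycin than in the respective controls. In PBS they were 18.8%, 20.2% and 19.6% of clusters, and after arsenite 15.7%, 15.5% and 15.5%. The mean fell from 19.5% ± 0.684 to 15.6% ± 0.118 (SD, n = 3 each), a difference of -3.95 percentage points, and the groups did not overlap (exact permutation test, two-sided, p = 0.100, the smallest 3 against 3 can give; 0.150 adjusted over 3 comparisons).

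In DMSO the share was 19.3%, 19.5% and 18.1%, against 17.6%, 15.7% and 16.7% at 4 h of TM. The mean was 19.0% ± 0.778 in DMSO and 16.7% ± 0.981 at 4 h, a difference of -2.31 points without overlap (exact permutation p = 0.100, adjusted 0.150). At 1 h of TM the share was 21.7%, 20.8% and 19.3%, with a mean of 20.6% ± 1.20, 1.64 points above DMSO, and the groups overlapped (exact permutation p = 0.200, adjusted 0.200). The TM 1 h library was above the DMSO library of the same number in 3 of 3 pairs (exact sign-flip permutation p = 0.250, the smallest 3 pairs can give). By library set, the difference was 1.83 points in replicates 1 and 2 and 1.24 in replicate 3 at 1 h, and -2.79 and -1.34 at 4 h. The 4 h libraries lay below the 1 h libraries by 3.95 points without overlap (exact permutation p = 0.100, a comparison added after the values were seen). None of these could pass 0.05 with 3 libraries a group. The fall was -3.95 points for arsenite and -2.31 for TM 4 h, and the difference between these effects was -1.64 points (permutation p = 0.460).

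**Figure D1:**
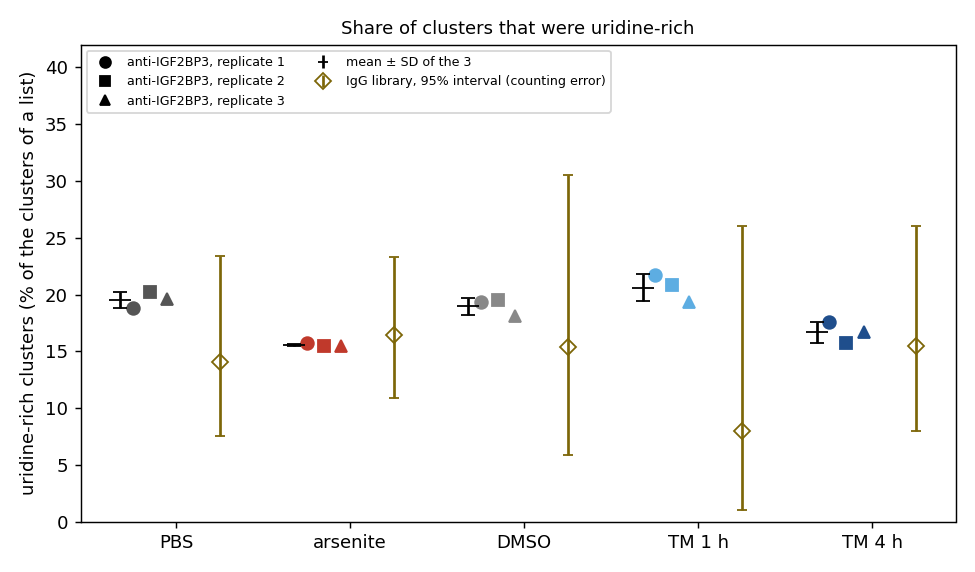
Uridine-rich clusters as a percentage of the clusters in each list, without the mitochondrial chromosome, by condition; filled symbols are the 3 anti-IGF2BP3 libraries, bars their mean ± SD, and open diamonds the IgG library with its 95% Clopper-Pearson interval. The arsenite libraries sit at 15.5% to 15.7%, below all PBS libraries (18.8% to 20.2%), and the TM 4 h libraries below all DMSO libraries, while every IgG interval spans several points.

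The lower shares were also present among clusters of 20 to 40 letters, where length differs little. There the share was 25.6% ± 0.594 in PBS and 20.9% ± 0.387 after arsenite, and 25.9% ± 0.930 in DMSO, 27.1% ± 0.838 at 1 h and 23.3% ± 0.821 at 4 h of TM. At a T share of 50% or more the PBS mean was 2.5% ± 0.173 and the arsenite mean 2.16% ± 0.0252, and DMSO, TM 1 h and TM 4 h had 2.62% ± 0.234, 2.82% ± 0.0990 and 2.21% ± 0.170 (n = 3 each). When each list was reduced to its 3501 clusters with most reads, the length of the shortest list, the shares became 16.5% ± 3.22 in PBS and 9.81% ± 1.84 after arsenite, and 11.3% ± 2.49, 15.0% ± 3.58 and 9.67% ± 2.87 in DMSO, TM 1 h and TM 4 h. At equal numbers of clusters the spread within groups was thus wider, and DMSO and TM 4 h overlapped while PBS and arsenite did not.

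Reads followed the clusters. Uridine-rich clusters held 15.4% ± 1.70 of cluster reads in PBS and 11.2% ± 0.547 after arsenite, a difference of -4.22 points without overlap (exact permutation p = 0.100, adjusted 0.300). In DMSO they held 13.4% ± 0.991, at 1 h of TM 15.7% ± 2.16 (exact permutation p = 0.300) and at 4 h 11.7% ± 1.38 (p = 0.200), with overlap in both.

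The IgG lists were short. Of their 372 clusters 56 were uridine-rich, or 15.1% with a 95% Clopper-Pearson interval of 11.6% to 19.1%, which covers counting error only since reads are not independent molecules. Single IgG lists gave 12 of 85 (PBS), 25 of 152 (arsenite), 6 of 39 (DMSO), 2 of 25 (TM 1 h) and 11 of 71 (TM 4 h). The files attached to the PBS and arsenite IgG samples carry each other's names, so no direction is taken between them. The pooled interval reaches the values of all arsenite and TM 4 h libraries and of PBS replicate 1 and DMSO replicate 3.

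Against the remaining clusters of the same list, uridine-rich clusters were shorter, had fewer reads and had a lower conversion share in 15 of 15 libraries. Their median length was 40 to 44 letters in the 15 libraries, and that of the remaining clusters 46 to 54. The difference averaged -8.07 letters (SD 1.49, n = 15, from -10.0 to -5.00). Mean reads per cluster ranged from 9.86 to 14.0 in uridine-rich and from 11.9 to 22.9 in remaining clusters, with a mean log2 ratio of -0.53 (SD 0.116, n = 15). Clusters with 100 or more reads were 0.782% of the uridine-rich and 2.33% of the remaining ones, and the deepest had 1082 and 5603 reads. Both differences had p = 6.1e-05 (exact sign-flip permutation over 15 libraries, two-sided), the smallest value that test can give. A threshold on a share of letters admits short stretches more readily, so the rule bears on length. These p-values are thus no independent support for either difference. Shorter length and fewer reads were not particular to uridine-rich clusters. Clusters under 20% T had them too against those from 30% to under 40%, as given below. Within clusters of 20 to 40 letters the read ratio turned to a log2 value of 0.02 (exact permutation p = 0.0498), so at matched length uridine-rich clusters did not have fewer reads.

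**Figure D2:**
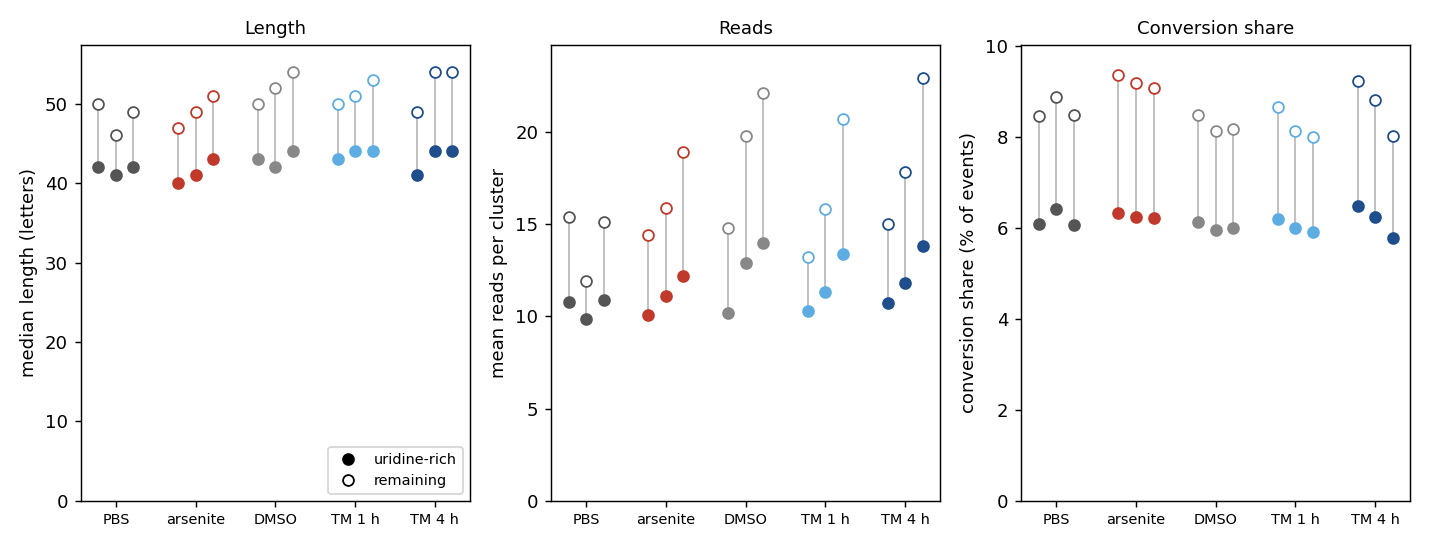
Median length, mean reads and conversion share of uridine-rich (filled) and remaining (open) clusters in each anti-IGF2BP3 library, 3 per condition, with a grey line joining the values of 1 library. In all 15 libraries the filled point lies below the open one in each panel, and the gap in conversion share was widest after arsenite (-2.95 points on average).

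The conversion share is the number of conversion events divided by conversion plus non-conversion events, summed over the clusters of a library. It was 5.78% to 6.49% in uridine-rich clusters, and their mean difference from the remaining clusters of the same library was -2.47 points (SD 0.305, n = 15, from -3.04 to -2.09, exact sign-flip permutation p = 6.1e-05). The denominator moves with the T content, so the rule bears directly on this difference and its p-value is no independent support. In PBS a read carried 9.88 ± 0.0572 events in uridine-rich and 7.41 ± 0.0358 in remaining clusters (SD, n = 3). Conversions per read, which do not use that denominator, were 0.575 to 0.634 in uridine-rich clusters, with a mean difference of -0.0290 from the remaining ones and a lower value in 15 of 15 libraries (exact sign-flip permutation p = 6.1e-05). Relative to the T available, 19.4 to 24.1 of every 100 T positions of uridine-rich clusters were conversion locations, against 26.8 to 35.8 of every 100 in the remaining ones. This count was not matched for reads per cluster, which averaged 11.6 in uridine-rich and 16.9 in remaining clusters over the 15 libraries.

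Along the whole range of T content the conversion share fell stepwise, while conversions per read changed little below the threshold. Over the 15 libraries together, the conversion share was 13.9% in clusters under 20% T, 9.63% from 20% to under 30%, 7.41% from 30% to under 40%, 6.14% from 40% to under 50%, 5.15% from 50% to under 60%, and 4.06% at 60% or more. The conversions per read in the same steps were 0.615, 0.632, 0.629, 0.605, 0.557 and 0.502. Mean reads per cluster were highest from 30% to under 40% T (20.6) and fell to 13, 8.28 and 7.10 in the 3 uridine-rich steps, where median lengths were 45, 34 and 30 letters. Under 20% T the mean was 14.0 reads and the median length 47 letters. From 30% to under 40% T the median length was 53 letters.

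**Figure D3:**
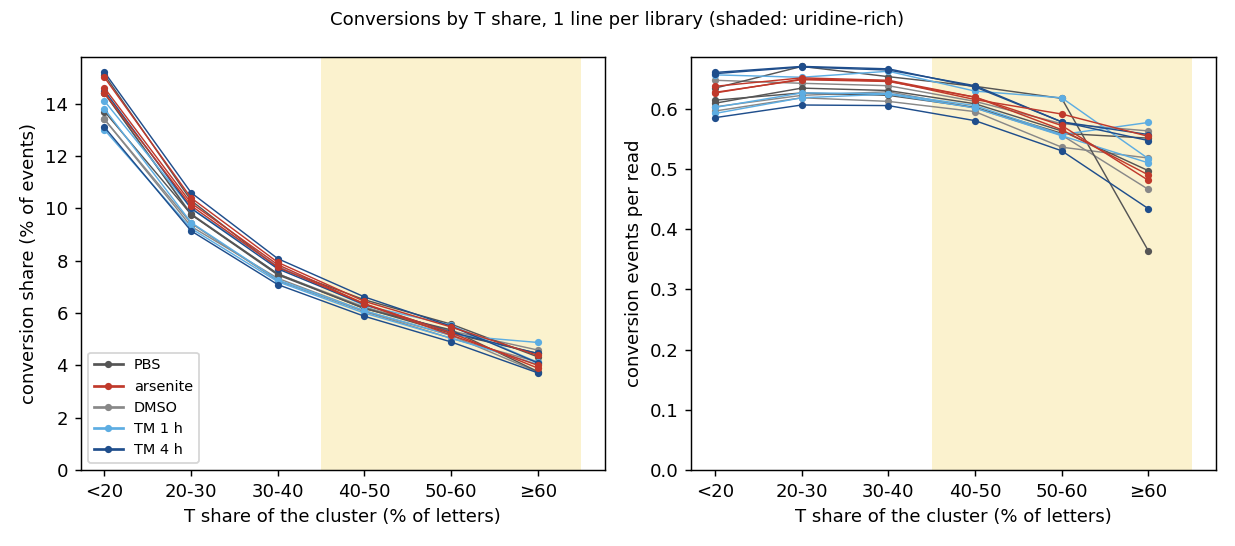
Conversion share (left) and conversion events per read (right) against the T share of clusters, with 1 line per anti-IGF2BP3 library coloured by condition and the uridine-rich range shaded. The conversion share falls from 13.9% below 20% T to 4.06% at 60% or more over all libraries, and conversions per read go from about 0.629 just below the threshold to 0.502 in the last step.

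The conversion share of uridine-rich clusters moved less with treatment than the spread between libraries. It was 6.09%, 6.41% and 6.07% in PBS and 6.33%, 6.23% and 6.21% after arsenite (means 6.19% ± 0.192 and 6.26% ± 0.0633, exact permutation p = 0.600). In the remaining clusters it was 8.60% ± 0.239 in PBS and 9.21% ± 0.146 after arsenite, without overlap (exact permutation p = 0.100, adjusted 0.300). The gap between both kinds of cluster therefore went from -2.41 ± 0.0497 to -2.95 ± 0.0865 points, a change of -0.545 without overlap (exact permutation p = 0.100, adjusted 0.300). The gap in conversions per read also widened, by -0.00697 (exact permutation p = 0.100). The remaining clusters themselves held less T after arsenite, at a mean T share of 28.6% ± 0.0282 against 29.6% ± 0.145 in PBS. Their events per read were 7.01 ± 0.122 and 7.41 ± 0.0358, so the denominator of their conversion share was lower too. Their conversions per read overlapped, at 0.646 ± 0.00156 and 0.637 ± 0.0189 (exact permutation p = 0.400). Whether composition accounts for the wider gap was not tested. Within a step of T share the arsenite and PBS values lay closer, at 6.39% ± 0.0586 and 6.29% ± 0.188 from 40% to under 50% T and 7.85% ± 0.0920 and 7.56% ± 0.149 from 30% to under 40%. The gap was -2.24 ± 0.0945 points in DMSO, -2.23 ± 0.201 at 1 h of TM (exact permutation p = 1.00) and -2.51 ± 0.251 at 4 h (p = 0.200). Uridine-rich clusters had 6.02% ± 0.0960 in DMSO, 6.03% ± 0.153 at 1 h and 6.17% ± 0.359 at 4 h.

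Among the letters other than T, uridine-rich clusters had more A and less C and G than the remaining clusters of their library. The difference averaged 3.82 percentage points for A, -2.46 for C and -1.36 for G, each with the same sign in 15 of 15 libraries (exact sign-flip permutation p = 6.1e-05, adjusted over the 3 letters 6.1e-05). At a T share of 50% or more the C difference shrank to -0.383 (exact permutation p = 0.0554).

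Short sequence words followed this composition, and they were searched in the strand of the RNA only, with overlapping matches possible between words. TTTTT was present in 35.8% of uridine-rich clusters, in 10.6% of the remaining ones and in 15.1% of all, at 14.4 ± 0.644 and 2.63 ± 0.345 per 1000 letters (SD over 15 libraries). ATTTA, the core of AU-rich elements that many unstable messenger RNAs carry, occurred 3.37 ± 0.140 times per 1000 letters in uridine-rich and 1.42 ± 0.112 times in remaining clusters, and was present in 15.6%, 8.38% and 9.66% of uridine-rich, remaining and all clusters. The longer form TATTTAT was present in 2.30%, 0.812% and 1.08%. TGTANAT, the word that PUM proteins are known to bind, occurred 0.832 and 0.412 times per 1000 letters (4.22%, 2.60% and 2.89% of uridine-rich, remaining and all clusters).

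Words known for IGF2BP proteins went in different directions. CATT was denser in uridine-rich clusters, at 13.6 ± 0.658 against 8.0 ± 0.411 per 1000 letters (48.3%, 36.8% and 38.9% of uridine-rich, remaining and all clusters had it). CACA was sparser, at 3.35 ± 0.234 against 7.72 ± 0.603 (14.6%, 33.2% and 29.9%), and ACAC was present in 9.99%, 23.8% and 21.4%. GGC was present in 18%, 42.7% and 38.3%, and GGACT, a form of the context in which adenosines are methylated, in 2.21%, 5.30% and 4.75%. Each of these words differed in the same direction in 15 of 15 libraries. The polyadenylation hexamer AATAAA was lower in uridine-rich clusters in 14 of 15 libraries. It occurred 0.362 and 0.416 times per 1000 letters (1.91%, 2.73% and 2.59% of uridine-rich, remaining and all clusters). The rule on T content bears directly on all these counts, so they carry no test.

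Uridine-rich clusters lay nearer to the 3′ ends of genes. By the span and strand of RefSeq genes (GRCh38.p14), 69.6% of them were inside a single gene, 1.86% in overlapping genes and 28.6% in none with a listed strand, against 71.8%, 1.73% and 26.5% of the remaining clusters. Exons, introns and UTRs were not used here, so only the distance to the 3′ end of the gene span is given. Each cluster took the gene of its merged region and the distance from the middle of that region. Uridine-rich and remaining clusters of the same region thus share 1 position. Of clusters in 1 gene, 80.2% ± 3.34 of the uridine-rich and 72.6% ± 6.17 of the remaining ones were within 5000 bases of that end (SD, n = 15), higher in 15 of 15 libraries (exact sign-flip permutation p = 6.1e-05).

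After arsenite the remaining clusters spread away from the 3′ end more than the uridine-rich ones. Within 5000 bases were 84.7% ± 2.27 of uridine-rich clusters in PBS and 77.7% ± 1.43 after arsenite, and 78.4% ± 2.99 and 63.4% ± 1.66 of the remaining ones. Both falls were without overlap (-7.02 and -15.0 points, exact permutation p = 0.100 each, adjusted 0.300). The gap between the kinds of cluster widened from 6.38 ± 0.871 to 14.4 ± 0.232 points, also without overlap (exact permutation p = 0.100, adjusted 0.150). The gap in DMSO was 5.65 ± 0.791 points, and at 4 h of TM it was 7.54 ± 1.04, without overlap (exact permutation p = 0.100, adjusted 0.150), though uridine-rich clusters themselves were at 78.9% ± 2.95 and 78.6% ± 2.83.

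**Figure D4:**
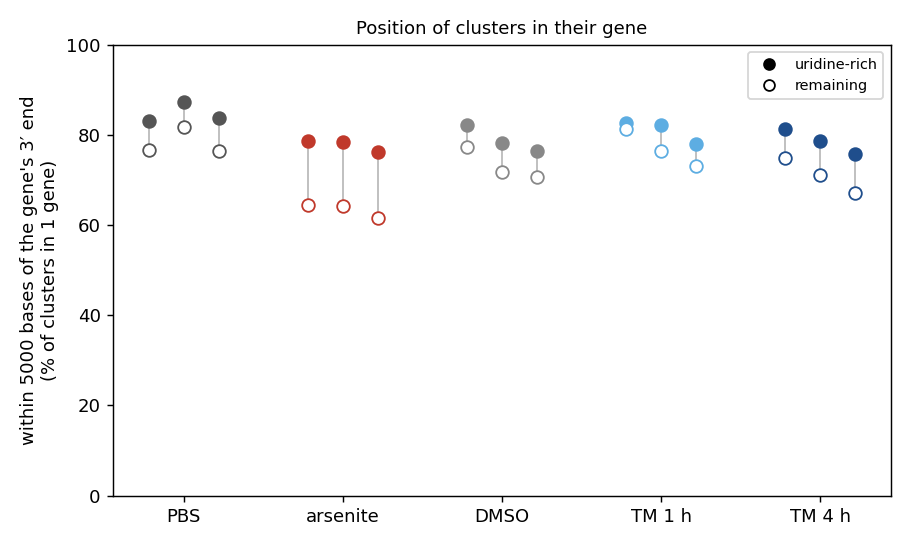
Percentage of the clusters in a single gene that lay within 5000 bases of its 3′ end, measured from the middle of the merged region, for uridine-rich (filled) and remaining (open) clusters of each anti-IGF2BP3 library, 3 per condition. The filled point is the higher one in all 15 libraries, and after arsenite the means were 77.7% and 63.4%.

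Among clusters further than 5000 bases from the 3′ end, the uridine-rich share was 14.5% ± 0.411 in PBS and 9.87% ± 0.0884 after arsenite. Nearer to the end it was 20.7% ± 0.739 and 18.1% ± 0.188, so the share was lower after arsenite in both positions. For TM 4 h against DMSO the shares were 12.5% ± 0.908 and 15.1% ± 0.385 far from the end, and 17.6% ± 1.08 and 19.6% ± 0.824 near it. These position classes were chosen after the values were seen.

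Recurrence between libraries was close in both kinds of cluster at like depth. Among clusters of 8 to 16 reads, 87.0% of uridine-rich and 86.5% of remaining clusters overlapped a cluster in another library of the group (difference 0.465 points, SD 1.04, n = 15, exact sign-flip permutation p = 0.110). In regions seen in 1 library lay 7.33% of uridine-rich and 7.35% of remaining clusters.

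Some clusters stood at 2 places at once. For 3004 uridine-rich clusters (4.12%, and 3.36% to 9.05% by library) and 13080 remaining ones (3.87%) the same sequence was listed at another position of the same list, so their reads cannot be placed. The 3 regions listed here for comparison had the highest T share in at least 12 libraries, among those not passed over for printing. They were of this kind in a wider sense, since a stretch of each was found inside a cluster of another gene.
Region at chr2:226337047-226337076, plus strand, also in a cluster in MTPN: aaTTTTcaccTTTacTTTcaaagtgTTTTg
Region at chr7:94836216-94836240, plus strand, also in a cluster in ARF1: atcaactgTTTTgtatacttgTTTT
Region in the span of CLEC2L, chr7:139534761-139534782, plus strand, also in a cluster in ERH: TTTacttaaacaTTTTTatgat
The 3 regions were 55.1%, 53.8% and 53.2% T and had clusters in 12, 13 and 12 libraries, all of them uridine-rich. Their levels, in reads per 1000000 cluster reads of the library without the mitochondrial chromosome (RPM), had medians over the 15 libraries of 22, 26.2 and 20.0 and maxima of 173, 46.4 and 71.0. Without the clusters listed at more than 1 position the fall in the uridine-rich share was -3.83 points for arsenite and -2.33 for TM 4 h.

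Region by region, few uridine-rich stretches were called as changed, and simulated 2-fold changes were recovered in at most 1% of changed regions. Reads of all clusters of a region were summed per library and tested with edgeR's quasi-likelihood test over all regions that passed the filter on low counts, with Benjamini-Hochberg adjustment and a threshold of 0.05. For TM 1 h against DMSO 0 of 1341 uridine-rich regions tested changed, beside 0% of all 11153 regions (6 uridine-rich and 307 of all regions had an unadjusted p under 0.05, and DESeq2 called 0 and 15). For TM 4 h 1 of 1341 changed, beside 0.108% of all regions (0.0807% rose and 0.0269% fell), and it rose (17 uridine-rich and 262 of all regions had an unadjusted p under 0.05, and DESeq2 called 5 and 54). For arsenite against PBS 17 of 288 changed, or 5.90%, beside 12.7% of all 4292 regions. Reads per cluster, lower in uridine-rich clusters, were not matched in these counts. Of the 288, 9 rose, beside 9.97% of all regions. Most of the 9 had no called cluster in at least 2 PBS libraries, as given below. How many of all rises were of that kind was not counted, so no difference is drawn between these shares. Another 8 of the 288 fell, close to the 2.77% of all regions, so falls were about as frequent as over all regions. The numbers of calls, for uridine-rich and for all regions, depended on which library was left out. In 1 of 6 such fits the number of uridine-rich calls stayed close to the full fit. Without arsenite replicate 2 edgeR called 0 uridine-rich regions and 25 of all 4955, and without arsenite replicate 3 it called 0 and 28 of all 5005. Without arsenite replicate 1 it called 3 and 37 of all 5285, without PBS replicate 3 it called 3 and 136 of all 5220, and without PBS replicate 2 it called 38 and 1102 of all 5675. With the replicate number as a block it called 3 uridine-rich regions, all lower, and 104 of all 4292 (77 higher, 27 lower).

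The split by direction after arsenite moved with the scaling. The fit used TMM factors, which shift levels between libraries, whereas RPM divides by cluster reads alone, so fitted log2 changes differ from ratios of the RPM printed here. For CD164 the arsenite mean over the PBS mean was -1.25 as a log2 ratio of RPM and -0.76 as fitted, for TMED7 it was -0.75 and -0.25, and for HSBP1 -2.81 and -2.22. With no TMM factors 11 uridine-rich regions rose and 12 fell (417 and 213 of all), and with DESeq2's size factors in edgeR 11 rose and 4 fell (499 and 65 of all). The median log2 change of all regions was 0.25 as fitted, 0.06 with no TMM factors and 0.43 with DESeq2's size factors, and that of uridine-rich regions -0.01, -0.19 and 0.18.

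The median log2 change was lower in uridine-rich than in remaining regions after arsenite (-0.01 against 0.27, all regions 0.25) and at 4 h of TM (-0.15 against 0.06, all regions 0.03), and higher at 1 h of TM (-0.10 against -0.22, all regions -0.20). A positive change was fitted for 49.7% of uridine-rich and 62.1% of remaining regions after arsenite, 38.8% and 54.9% at 4 h, and 43.7% and 34.4% at 1 h. The level of each median depends on the scaling, and the distance between both kinds kept its sign under every alternative tried. Both TM comparisons share the DMSO libraries.

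Regions on chromosome 8, or without a uridine-rich cluster of up to 30 letters, were passed over here too. Of the other uridine-rich regions in all 15 libraries, the 6 with the largest share of reads were taken. Of these, 5 lay in genes, among them genes for growth factors, translation and trafficking. As whole regions, KITLG (38.8%), CD164 (39.0%), EIF4E (39.6%), AREG (39.9%) and TMED7 (38.7%) were under 40% T. The region outside named genes was 40.3% T. Levels and changes of these regions count all their clusters, those below the threshold included. KITLG, the ligand of the receptor KIT, had a region at chr12:88492604-88493516 with 46 uridine-rich clusters among 88, centred 267 bases from the 3′ end of the gene span. Its values were 1306, 2528 and 1549 RPM in PBS, 1249, 1001 and 860.4 after arsenite, 1296, 1052 and 1077 in DMSO, 2385, 1549.8 and 1138 at 1 h of TM and 925, 796 and 662 at 4 h. The 4 h libraries were all below the DMSO libraries, with a log2 change of -0.48 (SE 0.12, edgeR adjusted p = 0.363), which missed the threshold.

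AREG, an epidermal growth factor receptor ligand, had a region at chr4:74454742-74455004, centred 132 bases from the 3′ end. It ranged from 346 to 1636 RPM over the 15 libraries, with 1 library, PBS replicate 2, above the rest, and it passed the threshold in no comparison (edgeR adjusted p = 0.665 for arsenite). The region of TMED7, a cargo receptor of the early secretory pathway, also lies in the span of the readthrough gene TMED7-TICAM2. It had 630.3 ± 102 RPM in PBS and 376 ± 27.1 after arsenite (SD, n = 3), with a log2 change of -0.25 (SE 0.14, edgeR adjusted p = 0.336).

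CD164, a sialomucin of endosomes and the cell surface, fell after arsenite. Its region at chr6:109366516-109368085 had 1332, 1809 and 1369 RPM in PBS and 742, 628 and 530.3 after arsenite, with a log2 change of -0.76 (SE 0.11, edgeR adjusted p = 0.00793). All arsenite libraries were below all PBS libraries. At 4 h of TM it had 1347, 954 and 798 against 1099, 998 and 966 in DMSO, which overlap (log2 change 0.03, SE 0.13).

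EIF4E, the cap-binding protein that starts translation, also fell, but its reads are shared with a copy. The region at chr4:98880083-98881030 had 1222, 1983 and 1117 RPM in PBS and 568, 462 and 403 after arsenite (log2 change -1.04, SE 0.11, edgeR adjusted p = 0.00256). A region outside any named gene at chr17:49423316-49424055 had 973, 1487 and 914 in PBS and 427, 357 and 295 after arsenite (log2 change -1.12, SE 0.12, edgeR adjusted p = 0.00231). Of their clusters 59.8% and 65.3% had a sequence listed elsewhere too, and in arsenite replicate 1 the stretch below appeared at both, each time with 7 reads and 4 conversion events at 3 positions.
EIF4E, chr4:98880615-98880643 and chr17:49423846-49423874, minus strands: TTTTatgcagaagcataTTTTgctggTTT
Clusters in 4 other regions (EIF4E) and 3 other regions (chromosome 17) also held a uridine-rich sequence of these regions. Part of the fall is thus counted in both regions, and the reads of shared clusters cannot be placed. The clusters not shared were not tested apart.

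The steepest fall after arsenite was in HSBP1, whose product binds heat shock factor 1. The region at chr16:83811433-83811800, whose middle lies 8121 bases before the 3′ end of the gene span, had 349.8, 619.5 and 464 RPM in PBS and 61.0, 76.2 and 67.5 after arsenite. The log2 change was -2.22 (SE 0.25, edgeR adjusted p = 0.00264), and every arsenite library was below every PBS library. In DMSO and at 1 h and 4 h of TM the region had 247 ± 27.6, 269 ± 50.1 and 221 ± 31.5 (SD, n = 3), which overlap.

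The other uridine-rich regions that fell were in PAFAH1B2, a subunit of platelet-activating factor acetylhydrolase (log2 change -0.87), PMAIP1, the BH3-only protein NOXA (-1.06), and the spans of RPL23, a ribosomal protein (-1.10), and H3-5, a histone H3 variant (-1.35). The strand of the last 2 genes is not listed in the tables used here. A uridine-rich sequence of the H3-5 region was also found in a cluster of H3-3B, another histone H3 gene, so its reads may belong to either.

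Of the 9 regions that rose after arsenite, those in ACSL3, SOAT1, PPP2CA, one of 2 in SLC38A2 and 2 outside named genes had no cluster called in any PBS library. No fold is given for these, since the lists hold called clusters only and no read count outside them. They passed the filter on low counts only through the arsenite libraries, so their calls are no support for a rise. PBS libraries were also shallower, with 40353 to 237308 reads in clusters against 213047 to 814702 after arsenite. ACSL3, an acyl-CoA synthetase of lipid droplets, had 127, 105 and 66.3 RPM after arsenite at chr2:222908777-222908927, whose middle lies 35787 bases before the 3′ end of the gene. As a whole this region was 37.1% T. It had no cluster in PBS, DMSO or TM 1 h and 2.22 in TM 4 h replicate 3. SOAT1, which makes cholesteryl esters, had 93.9, 76.2 and 46.6 after arsenite.

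A region at chr7:10452306-10452336 outside named genes had 93.9, 68.3 and 62.6 RPM after arsenite and no cluster in PBS. Its sequence was also found in a cluster of HSPA8, the constitutive heat shock cognate, and is shown for that reason.
Region at chr7:10452306-10452334, plus strand, also in a cluster in HSPA8: attcatgatattgtcctggttggtggttc
It has no run of 3 T although 44.8% of its letters are T. The other unnamed region that rose, on chromosome 3, likewise had a sequence that was found in another gene's cluster. KRT10, a keratin, had 319, 263 and 236 RPM after arsenite and 46.4, 0 and 0 in PBS, where 2 of 3 libraries had no called cluster, so no fold is given. It too passed the filter through the arsenite libraries. Clusters were called in every library in 2 of the regions that rose. The other region of SLC38A2, an amino acid transporter, had 376, 299 and 279.9 RPM after arsenite and 135, 297 and 158 in PBS, with a log2 change of 1.32 (SE 0.21, edgeR adjusted p = 0.00905) although the RPM values overlap. FEM1C, a substrate receptor of an E3 ligase, had 282, 294 and 237 after arsenite and 160.1, 173 and 176 in PBS (log2 change 1.09, SE 0.23, edgeR adjusted p = 0.0176). Without the regions that hold a sequence found at another position, edgeR called 13 of 225 uridine-rich regions (10 higher, 3 lower) and 465 of all 3403 regions (406 higher, 59 lower).

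STC2, stanniocalcin 2, a secreted glycoprotein known to be induced by endoplasmic reticulum stress, was the region that rose at 4 h of TM. At chr5:173317024-173317320 it had 35.3, 40.7 and 40.3 RPM in DMSO, 71.0, 44.1 and 41.7 at 1 h and 123, 202 and 131 at 4 h. The log2 change at 4 h was 1.97 (SE 0.35, edgeR adjusted p = 0.0434), and all 4 h libraries were above all DMSO and 1 h libraries. The call was lost when any 1 TM 4 h or DMSO library was left out, with a replicate block and with a minimum mean of 10 reads. In PBS it had 75.9, 0 and 117 and after arsenite 93.9, 57.8 and 76.1. Of its clusters 13 of 20 were uridine-rich, although the region as a whole was 32.7% T.

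**Figure D5:**
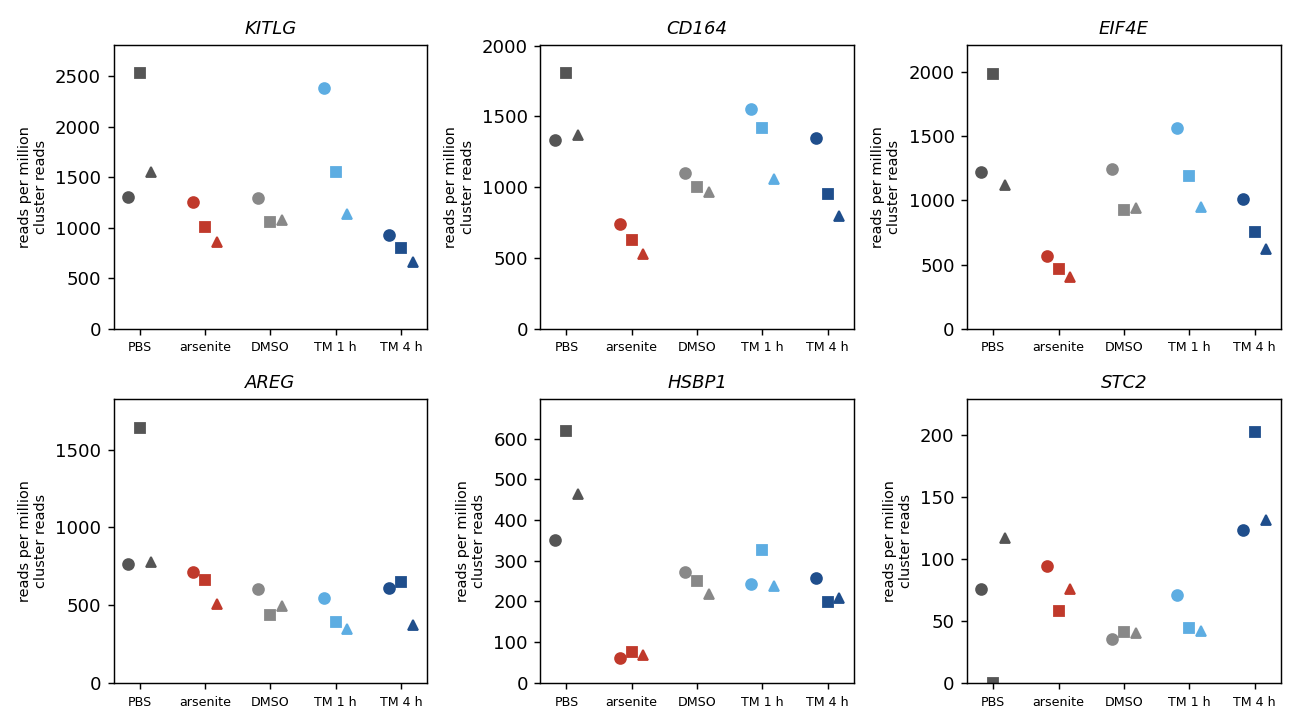
Level of 6 uridine-rich regions in reads per 1000000 cluster reads of the library (RPM) (vertical axes start at 0 and differ between panels), by condition; circles, squares and triangles are replicates 1, 2 and 3. CD164, EIF4E and HSBP1 are lower in all arsenite than in all PBS libraries, and STC2 is highest in the TM 4 h libraries (123 to 202).

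Genes of the stress pathways carried uridine-rich clusters, in a share below that of the lists as a whole, and few of their uridine-rich regions passed the filter for testing. Over all clusters in regions named with a gene 17.4% were uridine-rich, and 6054 of 8855 genes with clusters (68.4%) had at least 1, and the difference of the lists from this carries no test. Among 24 genes of the unfolded protein response 22 had clusters and 15 a uridine-rich one, and 204 of the group's 1384 clusters (14.7%) were uridine-rich. DNAJC3, an inhibitor of the eIF2α kinases, had 47 of 140, SEL1L, an adaptor of ER-associated degradation, 27 of 76, and PDIA4, a disulfide isomerase, 14 of 27. HSPA5, the main ER chaperone, had 0 of 85, and ATF4, the transcription factor of the integrated stress response, 0 of 93. None of the 3 regions tested for each TM comparison, and not the 1 tested for arsenite, was called by edgeR.

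Of 27 immediate early and AU-rich genes 26 had clusters and 22 a uridine-rich one, and 198 of 1870 clusters (10.6%) were uridine-rich. EGR1, a growth-induced zinc finger factor, had 17 of 205 and KLF10 34 of 132. FOSL1 had 0 of 83. JUN had 8 of 46 and EGR3 7 of 69, found in 3 libraries each. These were the arsenite libraries, with 75.1, 97.2 and 58.9 RPM for JUN and 32.9, 52.5 and 70.0 for EGR3, and no uridine-rich cluster of either gene was called in the PBS, DMSO or TM libraries. The libraries of the other clusters of JUN and EGR3 were not compared. The pattern thus cannot be told apart from that of all clusters of these genes. Both genes were picked from the list for this pattern, and no test bears on them.

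Of 16 heat shock and oxidative stress genes 14 had clusters and all 14 a uridine-rich one, with 205 of 1704 clusters (12%). GCLM, the regulatory subunit of the enzyme that starts glutathione synthesis, had 27 of 52, NQO1, a quinone reductase, 26 of 92, and TXNRD1, thioredoxin reductase, 59 of 267. Among 19 genes known as IGF2BP targets, 14 had clusters and 13 a uridine-rich one, with 396 of 2997 clusters (13.2%). CDK6 had 81 of 373, HMGA2 53 of 253 and TFRC 49 of 204, while HMGA1 had 0 of 90. No tested uridine-rich region of these lists was called in any of the 3 comparisons by edgeR, and the lists are short, with at most 6 regions tested in each.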

How the data were processed

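The authors deposited 1 list of clusters per library and a table of counts per gene. Per the file headers, the columns of a cluster list are coordinates, strand, sequence, count of reads, conversion locations, counts of conversion and non-conversion events, and a mode score that was not used. Clusters were called per library, with at least 2 reads and 2 conversion locations in the values. The cluster caller is not given in the sources used here. The submitters' processing notes name bcl2fastq 2.20.0.422, UMI-tools 1.1.1, Trimmomatic 0.30, Bowtie 0.12.7, featureCounts 2.0.1 and the build hg38, with no role. At the same coordinates, 1110 of 1110 cluster sequences inside RefSeq promoter windows were identical to them. How reads matching several places were counted is not stated.

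The members and gene lists were chosen with earlier results of these data known. T shares were computed from cluster sequences with pandas 2.3.3, and libraries were compared by exact permutation (3 against 3, smallest p 0.100; sign-flip over 15 libraries; 3 pairs, smallest p 0.250). Clusters of all lists that overlapped by 1 base on a strand were merged into 75158 regions, and edgeR 4.0.16 (R 4.3.3) was run on their read counts (filterByExpr, TMM factors on the reads of tested regions, quasi-likelihood), all groups of a set in 1 fit, and with DESeq2 1.42.0 as an alternative. A region without a called cluster in a library counted as 0. Genes were named from RefSeq spans (GRCh38.p14), with strands for 27303 genes. Named regions were the 6 with most reads in all 15 libraries, the 3 with the highest T share in at least 12, and the 3 that rose or fell most among those called with a mean of at least 10 reads and no overlap of the groups. Libraries of a group differed beyond counting noise in all 15 pairs (chi-square over genes, largest p 7.0e-23). In simulations with 1 estimate of spread for all regions, only regions with a mean of at least 10 reads were changed. Of 2-fold changes edgeR recovered 0% (TM 1 h), 0% (TM 4 h) and 1% (arsenite). Of 4-fold changes it recovered 6%, 3.5% and 60%, and of 16-fold changes 76%, 83% and 81.5%, with at most 4 false calls.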

Additional observations from a re-analysis of the deposited data

How the results depend on the processing

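The uridine-rich share kept its direction under every alternative tried: from -6.73 to -0.340 points for arsenite (10 alternatives), -3.81 to -0.408 for TM 4 h (12) and 0.196 to 3.68 for TM 1 h (12). Leaving out single libraries gave -4.30 to -3.61, -2.78 to -1.80 and 1.09 to 2.28. The gap in conversion share for arsenite stayed between -0.748 and -0.359, and that for TM 4 h between -0.397 and -0.0415 (without single libraries -0.590 to -0.504, and -0.407, without TM 4 h replicate 3, to -0.162). Changes near 0 turned sign, and the cause was not tested. The length gap turned to 0.667 at 50% T and 1.00 at 20 to 40 letters for TM 4 h, and to 0.333 at 20 to 40 letters for arsenite (without single libraries -1.0 to 0.667 and -1.67 to -0.167). The log2 read ratio turned to -0.02 at 20 to 40 letters for TM 1 h. For TM 4 h it turned to 0.03 at 50% T and at 20 to 40 letters, 2.5e-04 with at least 5 reads, 0.00338 without clusters listed at several positions and 0.04 in replicates 1 and 2 (without single libraries -0.06 to 0.06). The conversion gap for TM 1 h turned to -0.0148 at 35% T, -0.104 in the deepest clusters, -0.0431 in clusters outside genes with a strand and -0.0315 in replicates 1 and 2 (without single libraries -0.0543 to 0.127). Over 15 libraries the read ratio turned to 0.02 at 20 to 40 letters, the C difference weakened to -0.383 at 50% T, and the G difference to -0.133 far from the 3′ end.

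Uridine-rich regions called by edgeR for TM 4 h numbered 1, and 0 where every cluster had to be uridine-rich, with a mean of at least 10 reads, in replicates 1 and 2, and without any single TM 4 h or DMSO library. DESeq2 gave 5 and no filter beyond 1 read gave 3. For arsenite, 17 became 3 where every cluster had to be uridine-rich and 30 with DESeq2, and 0 to 38 without single libraries. Over all regions, edgeR's 547 calls for arsenite became 1099 with DESeq2 and 25 to 1102 without single libraries. Library names do not say that a replicate number is a pairing. Same-numbered libraries lay on the same side of their group means in 3 of 3 numbers for the share at TM 1 h, 1 of 3 at TM 4 h and 0 of 3 for arsenite. With the replicate number as a block, edgeR called 0 for TM 4 h and 3 for arsenite, and for library values the mean differences are unchanged, with a smallest possible p of 0.250. In simulations at these depths, 2-fold changes were recovered in 0% (TM 1 h), 0% (TM 4 h) and 1% (arsenite) of changed regions. For 4-fold changes the shares were 6%, 3.5% and 60%.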

Other observations

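The transcripts of the IGF2BP genes themselves carried uridine-rich clusters. IGF2BP3 had 16 uridine-rich clusters among 85, found in 10 libraries, and IGF2BP2 had 7 of 49 in 6 libraries, while no cluster was listed in IGF2BP1. Among genes with many clusters, few were uridine-rich in PABPC1, the poly(A)-binding protein (16 of 303), and in MKI67, a proliferation marker (9 of 457). In CDH1, the epithelial cadherin, 9 of 10 clusters were uridine-rich, found in 9 libraries. CD44, a hyaluronan receptor, had 45 of 447 in 14 libraries. These genes were picked from the lists after their values were seen, and no test bears on them.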
